A study of Bos taurus with 2 samples.

Results

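The RAB GTPases and vesicle fusion genes were 116 of the 32429 gene names on a bovine oligonucleotide array. A gene was taken when its name in the scanner tables began with RAB, STX, SNAP or SYT followed by a digit, or with STXBP or VAMP, or was NSF, NAPA, NAPB, NAPG, CPLX1 or CPLX2. These genes had 236 probes on 249 spots. Spermatozoa RNA was hybridised from low-fertile and from high-fertile HF crossbred breeding bulls, on 1 array per fertility group. The groups differed by the fertility entry of the labels alone, with no treatment, and neither the number of bulls behind an array nor their ages are given in the labels. Since neither group has a replicate array, no test could be made, and every difference, written as log2 of low-fertile minus high-fertile, describes these 2 arrays.

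RAB GTPases are molecular switches that, when bound to GTP and anchored in a membrane by a lipid tail, recruit effectors that move and tether vesicles. Fusion is then driven by SNARE proteins: a VAMP on the vesicle zippers up with a syntaxin and a SNAP-25 family protein on the target membrane. Syntaxin-binding proteins of the Munc18 kind assist the assembly, complexins clamp it, synaptotagmins couple it to calcium, and NSF with its adaptors takes the spent complexes apart. In spermatozoa the best known use of this machinery is the acrosome reaction, the release of the acrosomal vesicle at fertilization, studied mainly in human and mouse sperm. Mature sperm are largely silent in transcription, so their RNA is thought to be mostly left over from earlier stages.

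Each measurement came from 60-base probes, and a gene's signal rests on few of them. The following probes are shown because each is the single measured probe of a SNARE, SNARE-binding, synaptotagmin or RAB gene described below and has an open reading frame. Capitals mark the longest run shared with a probe of another gene name. Positions are those in the scanner tables, on build HGSC Btau_3.1.
STX10, chr7:10704702-10704761, plus strand: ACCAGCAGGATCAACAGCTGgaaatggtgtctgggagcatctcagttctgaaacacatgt
CPLX1, bases 7092 to 7151 of an unplaced contig (chrUn), minus strand: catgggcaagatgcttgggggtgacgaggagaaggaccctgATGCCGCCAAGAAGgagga
SYT6, chr3:31735731-31735790, plus strand: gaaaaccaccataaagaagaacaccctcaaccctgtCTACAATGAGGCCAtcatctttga
STXBP2, chr7:14942362-14942421, plus strand: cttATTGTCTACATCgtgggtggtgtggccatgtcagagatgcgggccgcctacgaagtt
RAB3D, chr7:14190927-14190986, minus strand: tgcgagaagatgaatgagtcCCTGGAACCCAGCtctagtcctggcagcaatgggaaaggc
The STX10 probe has the longest such run of the 5, 20 bases, shared with a probe for a transcript described as syntaxin 10-like. That second probe was at background on both arrays. Over all members, 15 probes shared at least 16 bases with a probe of another gene name, and 3 of these were measured.

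Across the whole array, 32.9% of spots on the low-fertile and 33.2% on the high-fertile array were well above background, and no spot was saturated. Signals are given as a percentage of each array's 75th percentile over the probes well above background on both arrays. The lowest signal well above background was 16.3% on the low-fertile and 15.2% on the high-fertile array. Each spot gives its own low-fertile minus high-fertile difference. The pooled SD of these differences over the 2 spots of a probe was 0.28 on the log2 scale (3038 probes). It is called the SD between spots below. The SD over the probes of a gene was 0.42 (1774 genes). Scaling on the spike-in controls put the median over all genes at 0.60 and all 44 measured members above 0, and scaling on the 75th percentile over all probes, or the series matrix, put that median at -0.10. Signs below are therefore relative to the bulk of genes and hold for the scaling used. Of 18 sperm and spermatid markers, 10 were measured, among them the acrosomal protease gene ACR (146 and 175%) and the tail fibre gene ODF1 (181 and 214%). PRM2, AKAP4, SPAM1 and IZUMO1, which also mark sperm, passed that call on neither array. The protamine gene PRM1 was higher in the low-fertile array (117 against 54.9%), and the transition protein gene TNP2 was lower (20.5 against 47.9%). Of 14 leukocyte markers 9 were measured, 5 above 0 and 4 below with a median of 0.06, and none differed 2-fold. They ranged from the T-cell coreceptor gene CD4 (707 against 1087%, -0.62) to the pan-leukocyte gene PTPRC (515 against 363%, 0.51). Of 10 epithelial markers 6 were measured and of 9 neuronal ones 4, with medians of -0.18 and 0.16. The part of other cells in the values below was not tested. In bulk RNA, fewer cells of a type and less RNA per cell cannot be told apart.

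Both arrays measured 44 of the 116 genes (37.9%, against 36.0% of all gene names), where measured means that at least 1 probe was well above background on both. A further 4 genes were well above background on the low-fertile array only and 5 on the high-fertile array only, and 63 were on neither. Over all 32429 gene names these were 1392, 1402 and 17894. The measured genes split almost evenly, 21 above 0 and 23 below (13 and 31 when all probes set the 75th percentile, 44 and 0 with spike-in scaling), with a median difference of -0.05 against -0.0001 over all 11687 measured genes. Of the 44, only RAB11FIP3 and STX10 were at least 2-fold higher in the low-fertile array, where 2.44% of all measured genes were, and no measured member was at least 2-fold lower, where 1.87% of all genes were. Over all genes these were 285 and 218, against 204 and 298 when all probes set the 75th percentile, 202 and 300 in the series matrix, and 1798 and 33 with spike-in scaling. Counts this near the background are no result about these genes. In all, 36 differed by less than 0.5 on the log2 scale and 25 by less than the SD between spots. The 4 that exceeded 2 such SDs compare with 2042 of the 11687 genes. Over all measured genes the 0.25 and 0.75 quantiles were -0.24 and 0.25, so small differences were common there too.

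**Figure D1:**
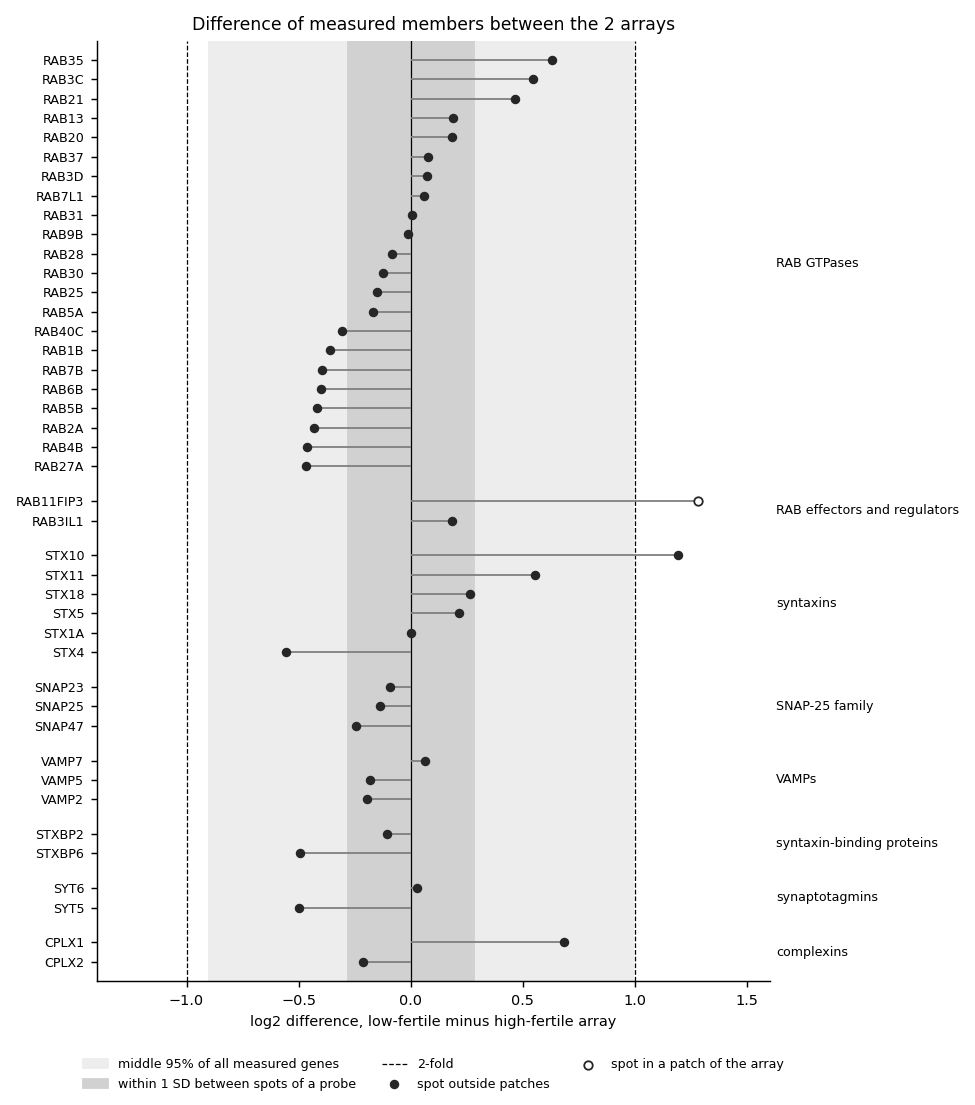
Log2 difference (low-fertile minus high-fertile array) of the measured members reported here, by role, with dashed lines at 2-fold, light grey for the middle 95% of all measured genes (-0.90 to 0.99) and dark grey for 1 SD between spots of a probe (0.28). RAB11FIP3 and STX10 lie past the 2-fold line, and RAB11FIP3 alone has its spot in a patch.

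Among the RAB GTPases, 22 of 55 were measured, and 9 lay above 0 and 13 below, with a median of -0.10 and a range of -0.47 to 0.63 (all 22 above 0 with spike-in scaling). None was 2-fold apart. RAB35, which acts in endocytic recycling and cytokinesis, had the largest positive difference of the GTPases. Its signal was 39.3% on the low-fertile and 25.4% on the high-fertile array, a difference of 0.63, and its 2 spots deviated by an SD of 0.03. RAB3C, a relative of RAB3A on secretory vesicles, followed with 93.6% against 64.1% (0.55). RAB21, which serves integrin traffic through endosomes, had 29.1% against 21.1% (0.46), both not far from the lowest signal well above background.

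At the other end of the GTPases stood several regulators of the Golgi, endosomes and secretory granules. RAB27A, which docks secretory granules and lysosome-related organelles, had 95.5% on the low-fertile and 132% on the high-fertile array (-0.47). RAB4B, of the recycling endosome, had 60.6% against 83.4% (-0.46), and RAB2A, which works between the endoplasmic reticulum and the Golgi, had 252% against 339% (-0.43). RAB5B, of the early endosome, had 18.4% against 24.6% (-0.42), and RAB6B, a Golgi RAB, had 179% against 236% (-0.40). All 5 differed by more than the SD between spots and none by more than 2 such SDs. RAB5A, the best known early endosome RAB, had 65.4% against 73.6% (-0.17), within the SD between spots, as was RAB3D, a RAB of secretory granules, at 22.6% against 21.5% (0.07). With no filter on dim probes every probe of a gene counts, and the median over all genes was 0.12. RAB27A (0.27) and RAB2A (0.17) then lay above that median. RAB4B (0.03) was above 0 but still below that median, and RAB21 (-0.21) fell below both.

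Of the 9 genes seen on one array only, 5 were RAB GTPases, which make up 55 of the 116 members. Here the bright array is set against the higher of its counterpart's floor and the dim probe's own signal. The resulting lower bound on the fold holds only for the signals as processed here and leaves out spot noise. RAB6A, a Golgi RAB, was well above background on the low-fertile array only, with 72.8% there and 13.7% on the high-fertile array, at least 4.79-fold higher in the low-fertile array. That value rests on 1 of its 3 probes, the others being on neither array. RAB6A was the only one of the 4 members on the low-fertile array alone to reach 2-fold, against 16.6% of all genes seen only there. None of the 8 spots around its own was 2-fold apart on either side. Neighbour counts and medians, here and below, take in every spot but controls, whether well above background or not.

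3 of the 5 members on the high-fertile array alone reached 2-fold, against 7.2% of all genes seen only there, and all 3 are RAB GTPases. For one-array genes the direction is largely set by which array passed the background call. Counts this small, on either array, are no result about these genes. RAB32, involved in melanosome and mitochondrial traffic, had 11.1% on the low-fertile array and 52.3% on the high-fertile array, at least 3.21-fold lower in the low-fertile array, and 3 of its 8 neighbouring spots differed at least 2-fold the same way. RAB5C, of the early endosome, had 14.4% against 36.0%, at least 2.21-fold lower, on 1 of its 3 probes. RAB14, which works between endosomes and the Golgi, had 3.27% against 34.1%, at least 2.09-fold lower. A second of its 4 probes was also well above background on the high-fertile array only (15.8% against 29.7%), and the other two were on neither. RAB42 had a bound of 1.21-fold (17.3% against 20.9%). Around that second RAB14 spot, 3 of the 8 neighbours were also at least 2-fold lower in the low-fertile array. The part of spot position was not tested. RAB32 has a single probe. With normexp background correction no bound reached 2-fold: RAB6A had 1.93, RAB32 1.66, RAB14 1.47 and RAB5C 1.40. That setting adds an offset of 50 to every signal, which by construction draws folds of dim spots towards none. For RAB32 the signals before scaling were 20.6 and 77.7. Bounds under this setting therefore cannot show whether those above would hold.

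**Figure D2:**
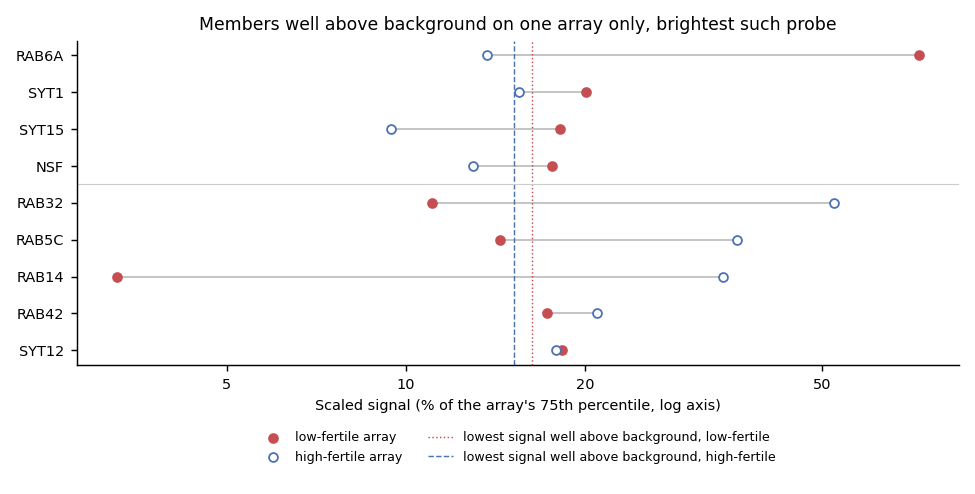
Scaled signal on a log axis of the 9 members well above background on one array only, each by its brightest such probe, filled for the low-fertile and open for the high-fertile array. Vertical lines mark the lowest signals well above background (16.3% and 15.2%), and the 4 genes above the horizontal line were on the low-fertile array only.

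Of the genes for proteins that bind RABs, 2 of 7 were measured (28.6%, against 36.0% of all gene names). RAB11FIP3, an effector of RAB11 in recycling endosomes and cytokinesis, had 48.3% on the low-fertile and 19.9% on the high-fertile array, the largest difference of any measured member (1.28, 2.43-fold). Its spot lay in a patch, meaning that the 8 spots around it had a median difference of at least 1, and 5 of the 8 were at least 2-fold higher in the low-fertile array. Its second probe was on neither array. RAB3IL1, which activates RAB3A, had 65.7% against 57.8% (0.19).

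Of the 15 syntaxins 7 were measured, 6 of them above 0, with a median of 0.26. With blocks of spots centred, the 75th percentile over all probes, the median of detected probes or the series matrix, 5 of 7 lay above 0, and with spike-in scaling all 7 did. STX10, a syntaxin of the trans-Golgi network, had 42.3% on the low-fertile and 18.5% on the high-fertile array (1.19, 2.28-fold). The value on the high-fertile array is close to the lowest signal well above background. Around its single spot, 4 of the 8 neighbours were at least 2-fold higher in the low-fertile array, with a median of 0.88. Of the 48 measured member probes only those of RAB11FIP3 and STX10 had 4 or more such neighbours, against 128 of all 14154 measured probes. The part of spot position in these 2 differences was not tested, and with the median of each block of spots subtracted they were 1.12 and 1.06.

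STX11, found mainly in immune cells, had 27.0% against 18.3% (0.56), and 2 of its 8 neighbours were 2-fold higher in the low-fertile array. STX18 and STX5, of the endoplasmic reticulum and Golgi, had differences of 0.26 and 0.21, and the 2 probes of STX18 gave 0.25 and 0.27. STX1A, a plasma membrane syntaxin of neurons, was level at 225% on the low-fertile and 224% on the high-fertile array (0.00). STX4, a plasma membrane syntaxin of many cell types, was the exception, at 148% against 217% (-0.56), the most negative value of any measured member.

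All 3 measured SNAP-25 family genes lay below 0, and above 0 with spike-in scaling. SNAP25, the neuronal form, had 88.4% on the low-fertile and 97.3% on the high-fertile array (-0.14), SNAP23, its widely expressed relative, had 17.5% against 18.6% (-0.09), and SNAP47 had 22.8% against 27.0% (-0.24). These differences were all smaller than the SD between spots. SNAP29 was on neither array, nor was SNAP91, a clathrin assembly protein gene that the naming rule takes in. The VAMPs gave 3 of 7 genes. VAMP2, the vesicle SNARE of regulated secretion, had 24.1% against 27.6% (-0.20) and VAMP5 had 53.8% against 61.0% (-0.18). With no filter on dim probes SNAP23 stood at 0.36 and VAMP2 at 0.06, where the median over all genes was 0.12. VAMP7, of lysosomes and late endosomes, averaged 43.7% against 41.8% (0.06), but its 2 measured probes gave -0.23 and 0.35.

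Syntaxin-binding proteins gave 3 of 7 genes. STXBP6 (amisyn), which holds syntaxin out of fusion complexes, had 58.2% on the low-fertile and 82.1% on the high-fertile array (-0.50). STXBP2 (Munc18-2), of epithelial and immune secretion, had 51.5% against 55.5% (-0.11). STXBP6 exceeded the SD between spots and STXBP2 did not.

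Synaptotagmins were the least measured large family, 2 of 14 (14.3%, against 36.0% of all gene names). SYT5 had 87.2% on the low-fertile and 123% on the high-fertile array (-0.50), and SYT6, a calcium sensor studied in the acrosome reaction of human and mouse sperm, had 19.2% against 18.8% (0.03). SYT1, the fast calcium sensor of neurons, and SYT15 were on the low-fertile array only, with bounds of 1.29-fold and 1.19-fold. SYT12 was on the high-fertile array only by its background call, yet its signal there (17.9%) was no higher than on the low-fertile array (18.3%), so no fold is given. Both complexins were measured, with opposite signs. CPLX1 had 51.1% against 31.8% (0.68, 1 of 2 probes) and CPLX2 had 29.4% against 34.1% (-0.21, 2 spots with an SD of 0.23). No neighbouring spot of the CPLX1 probe was 2-fold apart. Of NSF and its adaptors none was measured on both arrays. NSF was on the low-fertile array only, by 1 of 2 probes, with 17.6% there and 13.0% on the high-fertile array (at least 1.16-fold higher in the low-fertile array), and NAPA, NAPB and NAPG were on neither.

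**Figure D3:**
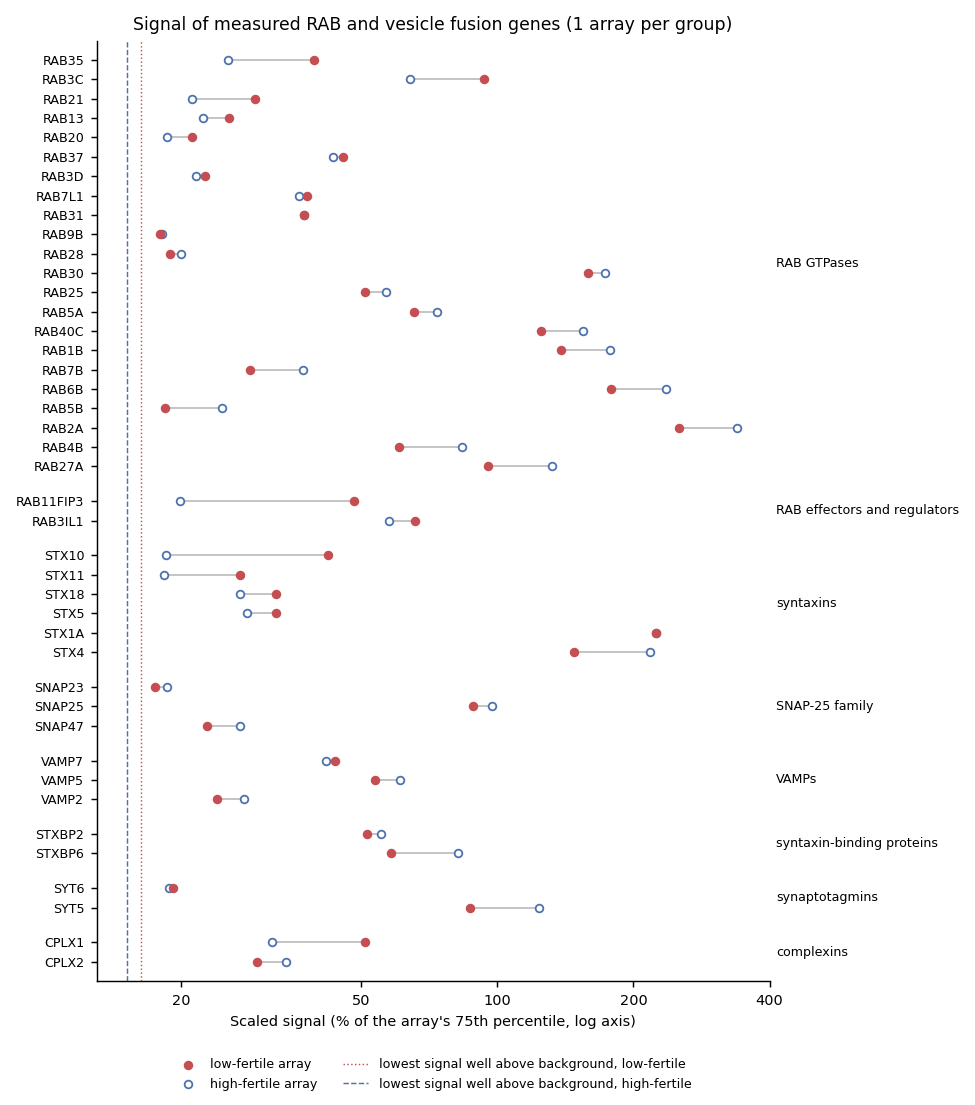
Scaled signal of the measured members reported here, by role, on a log axis, filled for the low-fertile and open for the high-fertile array, with vertical lines at the lowest signals well above background (16.3% and 15.2%). Signals are comparable along a row, not between genes, and the RAB11FIP3 and STX10 rows are the widest.

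For the genes known from the acrosome reaction the arrays gave a partial view. A list of 22 was drawn from textbook knowledge, and 19 had a probe under their names. Of these 11 were measured, NSF was on the low-fertile array only, and 7 were on neither: RAB3A, RAB27B, VAMP1, SYT4, NAPA, RAB11A and RAB7A. The measured ones had a median of -0.09 against -0.0001 over all genes, with 5 above 0 and 6 below, from -0.47 for RAB27A to 0.68 for CPLX1. None was 2-fold apart. The split about 0 was 2 and 9 when all probes set the 75th percentile, and 11 and 0 with spike-in scaling. With no filter on dim probes, which takes in all 19, it was 15 and 4. About the median over all genes it was then 9 and 10. The SNARE partners of this reaction differed little, at 0.00 for STX1A, -0.20 for VAMP2 and -0.14 for SNAP25.

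Few probes of a gene gave a measurement. In all, 48 of the 236 member probes (20.3%) were measured, against 27.6% of all probes. Of the 31 measured members with at least 2 probes, 27 (87.1%) had a single measured probe, against 66.9% of such genes overall. None of the 31 had all its probes measured, against 801 of 5357 such genes overall. In 26 genes measured and unmeasured probes lay on one transcript record, and the measured ones stood nearer the 3′ end in 19. The share over all genes was not computed, so this is not a trait of these genes. Some overlapping probes also gave different calls. Of 2 RAB2A probes that share 33 bases, the first had 252% on the low-fertile and 339% on the high-fertile array. The second had 4.79% and 3.36%. For RAB13 a pair sharing 48 bases had 26.7% and 21.7% at the first probe, while the second was on neither array. The overlapping pairs of RAB15, RAB33B, RAB7A, SYT11 and SYT13 gave the same call, with both probes on neither array. A call on neither array thus describes probes and does not show that a gene is unexpressed.

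**Figure D4:**
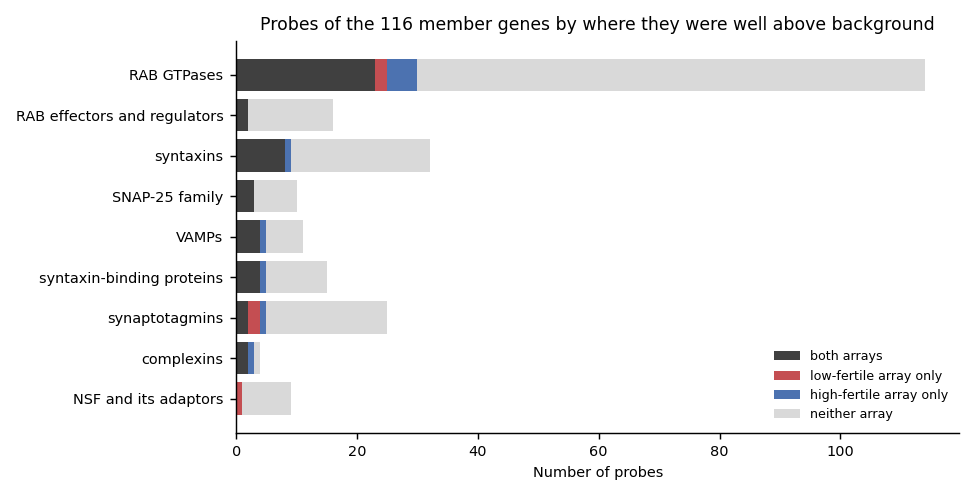
Number of probes of the 116 genes by role and by where they were well above background: both arrays, the low-fertile array only, the high-fertile array only, or neither. In every role but the complexins, probes on neither array are the most numerous, 84 of them for the RAB GTPases.

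Genes that work with the RABs and SNAREs were taken from 4 further lists, to be read against the 2.44% of all measured genes at least 2-fold higher, the 1.87% at least 2-fold lower, and the 5846 of 11687 below 0. Among other SNAREs and Sec1/Munc18 proteins 7 of 18 were measured, with a median of 0.23, and VTI1A, a Golgi SNARE, was 2-fold higher (59.5% in the low-fertile array against 25.2% in the high-fertile array, 1.24). Among priming factors and other calcium sensors 14 of 27 were measured, 12 of them below 0 (2 with spike-in scaling), with a median of -0.20. The 2 at least 2-fold lower were CPLX3, a complexin of retinal synapses (22.7% against 52.7%, -1.22), and UNC13A, which primes synaptic vesicles (35.2% against 77.3%, -1.13). With no filter on dim probes 13 genes of that list lay above 0 and 14 below, with a median of -0.005. The median over all genes was then 0.12, and 10 genes of the list lay above it and 17 below. The stricter filter on dim probes left 3 of them, 1 above 0 and 2 below. Among factors of RAB prenylation, recycling and exchange 17 of 35 were measured, with a median of 0.02, and CHML, which escorts RABs to prenylation, was 2-fold higher (86.4% against 32.7%, 1.40). Among tethering factors 12 of 36 were measured, with a median of -0.03, and COG4, a subunit of the Golgi tethering complex, was 2-fold higher (40.5% against 16.9%, 1.26). The last value on the high-fertile array is close to the lowest signal well above background.

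**Figure D5:**
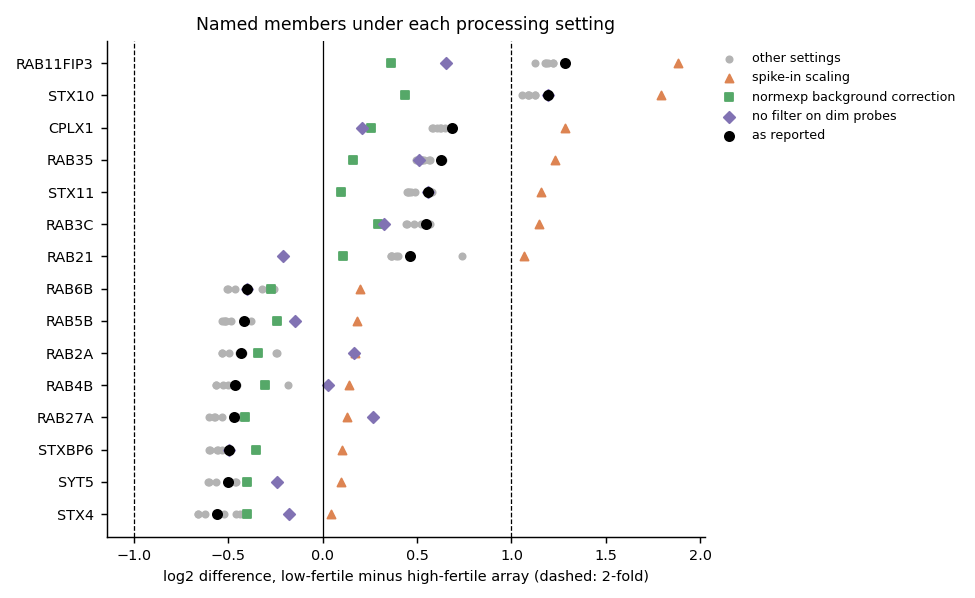
Log2 difference (low-fertile minus high-fertile array) of 7 members with the most positive and 8 with the most negative values among those reported here, under each processing setting, dashed lines at 2-fold. Under spike-in scaling all lie further right. With normexp background correction, whose offset of 50 shrinks differences of dim spots by construction, neither RAB11FIP3 (0.36) nor STX10 (0.44) reaches 2-fold.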

How the data were processed

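Per the file headers, the deposited scanner tables hold spot intensities from Agilent Feature Extraction 11.5.1.1 in 1 colour, background-subtracted and detrended within each array. The deposited series matrix holds log2 values, which equal the log2 processed signals plus a constant per array (-5.55 low-fertile, -5.12 high-fertile, within 0.01 for 98.6% of probes). Column medians were -1.37 and -1.43. Scale and direction are known, and genes were not centred.

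From log2 processed signals, controls and outlier spots (6 on the low-fertile and 3 on the high-fertile array) were left out, spots averaged per probe, and each array's 75th percentile over probes well above background on both arrays subtracted. A gene is the mean of its measured probes, under the name in the file; 214 of 236 member probes matched a reference record (ARS-UCD2.0, names only), which calls RAB7L1 RAB29, RAB39 RAB39A and SYT15 SYT15B. A difference counted at 2-fold. Versions were Python 3.11.15, pandas 2.3.3, R 4.3.3 and limma 3.58.1. The steps were tested on simulated data. The array number limits the precision.

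Named are members at least 2-fold apart, the 8 largest per direction, the acrosome list, up to 5 one-array members per direction and, per further list, genes at least 2-fold apart with at most 2 others; any further name was picked with its value in view. Of the 44 measured members, 2 enter the counts and medians but are not reported here by name. Members and lists were chosen with earlier results of these data known.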

Additional observations from a re-analysis of the deposited data

How the results depend on the processing

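Of 44 measured members, 2 were at least 2-fold higher in the low-fertile array, beside 285 of all 11687 measured genes. With spike-in scaling 7 were (1798 of all genes), and at a 1.5-fold threshold 4 (1020). With no filter on dim probes 6 of 116 were (1807 of 32429). Without spots in patches 1 of 43 was left (267 of 11644), as RAB11FIP3 was lost. Without probes sharing 16 bases with other genes 1 of 41 was left (262 of 10174), as STX10 was lost. The count was 0 with normexp background correction (48 of 11687), with the stricter filter on dim probes (46 of 4261) and at a 4-fold threshold (21 of 11687). The count of members at least 2-fold lower stayed at 0 except with no filter, where it was 3, beside 814 of all 32429 genes. Counts so near the share over all genes are no result about these members. The median over members, -0.05, was 0.55 with spike-in scaling, where the median over all genes was 0.60, and lay from -0.31 to 0.11 under the other 13 settings. It was lowest with the stricter filter, which left 13 members, and there the median over all genes was -0.09. It was highest with no filter, where the median over all genes was 0.12. The one-array counts of 1 (low-fertile) and 3 (high-fertile) stayed with 2 of 3 alternatives and were both 0 with normexp. Changes in count between scalings follow from the shift of all genes. The offset of 50 in normexp shrinks differences of dim spots by construction, in members and other genes alike. Elsewhere the cause was not tested. The spike-in scaling rests on 7 control probes. No paired analysis was possible because each group has 1 array.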

Other observations

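The array also holds 39 probes outside the naming rule whose accession or description places them in these families, chosen after the data were seen. Of them 11 were well above background on both arrays, 2 on the low-fertile array only, 4 on the high-fertile array only and 22 on neither. A probe described as RAB6A-like was on the low-fertile array only, with 34.8% there and 9.63% on the high-fertile array. That is the same direction as the RAB6A probe of the report. The one described as RAB5C-like was measured on both arrays, at 73.4% on the low-fertile and 72.3% on the high-fertile array (0.02). It was thus level, whereas the RAB5C probe of the report was on the high-fertile array only. A probe described as Rab-35 was on the high-fertile array only (26.1% there, a difference of -0.89), the opposite direction to the measured RAB35 probe. Another, described as RAB42, was measured on both arrays at 24.9% against 31.1% (-0.32). A probe for a RAB11B-like transcript had 98.1% against 146% (-0.57).

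Acrosome list genes with no probe under their own names were found among these. Synaptotagmin VIII had 30.8% on the low-fertile and 37.0% on the high-fertile array (-0.26). Synaptotagmin VII was on the low-fertile array only (18.1% against 11.8%), and every syntaxin 2 probe was on neither array. The NSF probe seen on the low-fertile array is placed on chromosome 11 in the scanner tables and the other NSF probe on chromosome 19, and which of them reports the gene was not tested.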
